A study of Homo sapiens with 3 samples.

Results

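The genes described are NRAS and IDH1, which are mutated in HT1080 cells, and 3 neighbours on the short arm of chromosome 9 at 9p21, MTAP, CDKN2A and CDKN2B. A gene was taken to have a peak when the summit of a listed peak lay within 2 kb of its start, at the hg19 positions of chromosome 1, 115259515 (NRAS), chromosome 2, 209119806 (IDH1), and chromosome 9, 21802635 (MTAP), 21975132 (CDKN2A) and 22009312 (CDKN2B). For 9p21, every peak between positions 20000000 and 24000000 was also listed. By these rules 2 of 21555 XPB peaks and 0 of 14570 XPD peaks belonged to a gene start, and 2 XPB and 3 XPD peaks belonged to the 9p21 window. The data were 1 ChIP-seq library against XPB and 1 against XPD from HT1080 fibrosarcoma cells, an established human line, and an input library from the same chromatin pool, for which no peak list was used here. The protocol text shared by the samples describes an antibody to CSB, whereas the antibody field of each sample gives a rabbit polyclonal antibody to XPB or to XPD, and that field was used.

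TFIIH is a general transcription factor with XPB and XPD as its helicase subunits. It melts the DNA at promoters so that RNA polymerase II can start, and it unwinds damaged DNA in nucleotide excision repair. NRAS encodes a small GTPase that relays growth signals, and IDH1 encodes cytosolic isocitrate dehydrogenase, whose cancer mutants make 2-hydroxyglutarate. CDKN2A and CDKN2B encode inhibitors of the kinases CDK4 and CDK6, CDKN2A also encodes the p53 regulator ARF, and MTAP encodes a purine and methionine salvage enzyme. HT1080 is known for a mutant NRAS allele, a mutant IDH1 allele and loss of CDKN2A, and MTAP is often lost together with CDKN2A. None of these changes was measured in the files, which hold called peaks only, and at 9p21 missing DNA and DNA without a called peak cannot be told apart.

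The sequences before the starts of IDH1 and NRAS are shown because IDH1 was the gene with a peak at its start and NRAS was not, while each holds a G-quadruplex motif, a run of G blocks able to fold into a stacked structure in single-stranded DNA. The series title names the binding profile of the helicases as its subject, and XPB and XPD are known to recognise such structures in vitro. The sequences are the 250 bases before the RefSeq start in build GRCh38.p14, read 5′ to 3′ on the gene's strand, from chr2:208255072-208255321 (minus strand) for IDH1 and chr1:114716772-114717021 (minus strand) for NRAS. Capitals mark the G-quadruplex motif, taken as 4 runs of at least 3 G with 1 to 7 bases between runs.
IDH1: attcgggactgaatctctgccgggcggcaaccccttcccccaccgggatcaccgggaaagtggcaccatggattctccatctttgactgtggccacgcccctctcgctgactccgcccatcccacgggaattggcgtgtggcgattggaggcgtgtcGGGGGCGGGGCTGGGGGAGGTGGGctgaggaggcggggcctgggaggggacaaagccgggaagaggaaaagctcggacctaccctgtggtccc
NRAS: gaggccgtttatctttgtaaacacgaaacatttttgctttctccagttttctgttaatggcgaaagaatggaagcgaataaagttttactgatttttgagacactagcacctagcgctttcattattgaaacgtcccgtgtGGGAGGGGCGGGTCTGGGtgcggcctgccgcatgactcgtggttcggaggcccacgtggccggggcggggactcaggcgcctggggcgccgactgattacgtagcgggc
CDKN2A, motif only: GGGATCAAGGGGAGTCGGGGTGTCTGGG

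All 5 genes matched the RefSeq table, which lists 7 starts for them, with 2 each for IDH1 and CDKN2A. Searched on both strands, 3 of the 7 starts had the G-quadruplex motif in the 250 bases before, all on the gene's own strand. It was present at 23.5% of the 35114 starts in the table on either strand and at 13.3% on the gene's strand. In IDH1, at the outer start, the motif ran from 93 to 70 bases before the start, and in NRAS from 109 to 92 bases before. In CDKN2A it ran from 163 to 136 bases before the outer start, on the ARF side of the gene. The inner CDKN2A start, on the p16 side, and the starts of MTAP and CDKN2B had no match in this window. A GC box, GGGCGG or CCGCCC, was found at 6 of the 7 starts, compared with 42.6% of all starts, and in IDH1 and NRAS one of the GC boxes lay inside the G-quadruplex motif. The CCAAT box, CCAAT or ATTGG, was found at 2 of the 7 (IDH1 outer start and MTAP; 32.0% of all starts). TATAAA or its complement was found at 1, MTAP, 215 bases before the start, compared with 10.7% of all. GC content of the 250 bases ran from 50.0% (MTAP) to 66.8% (both CDKN2A starts), and the median over all starts was 58.0%. It was 66.4% at the outer IDH1 start and at CDKN2B, 56.8% at the inner IDH1 start and 54.4% at NRAS. Whether the motif counts go beyond GC content was not tested. These matches describe letters, and the table's build differs from that of the peaks, so no motif was placed inside a peak.

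IDH1 had a peak at its start in the XPB list and none in the XPD list, and the other 4 genes had none in either. That is 1 of 5 starts for XPB and 0 of 5 for XPD. The 5 genes were picked by name and not sampled, and 3 of them are neighbours at 9p21, so no interval is given for these shares. As background, 2.70% of 4 kb windows tiled over the chromosomes held an XPB summit and 1.86% an XPD summit. These shares cover the whole genome, and the share over gene starts alone was not computed, since no hg19 annotation was used. With 5 starts and 1 library for each antibody no test was possible, and the intervals below cover counting error only.

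The main XPB summit at IDH1 lay 34 bp inside the gene, at position 209119772 of chromosome 2. Its peak ran from 209119585 to 209120798, so that it reached 992 bp upstream of the start and 221 bp into the gene. The summit was 11 fragments high (exact Poisson interval 5.49 to 19.7), which is the median height of the XPB list. The score, which in the usual layout of the peak caller grows with the negative log of its p-value, was 334.2 and stood at or above that of 89.1% of XPB peaks. Among the 2857 XPB peaks of the same height the median score was 183.0, and 95.6% scored no higher than the IDH1 peak. The peak was 1214 bp wide, compared with a median of 833 bp in the list. IDH1 thus carried a wide peak of ordinary height and high score.

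A second XPB peak followed 75 bp away, inside IDH1 as counted from the start named above, from 209118741 to 209119509. RefSeq also lists an inner IDH1 start, and whether this peak covers it was not computed. Its summit lay 908 bp inside the gene, with 10 fragments (4.80 to 18.4) and a score of 206.4. The summits were 874 bp apart, and the peaks together spanned 2058 bp. Over the whole XPB list, 12.4% of summits had another XPB summit within 2 kb. Fragments of 400 to 700 bp were sequenced, per the labels' protocols, which limits how finely neighbouring summits can be placed.

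No XPD peak overlapped either IDH1 peak, and the nearest XPD summit was 58.7 kb upstream, with 15 fragments and a score of 167.4. On the other side the nearest XPD summit was 187 kb away. Over the whole lists 26.6% of XPB peaks overlapped an XPD peak. Among the 1231 XPB peaks with a score within 10% of that at the IDH1 start, 59.6% (56.8 to 62.4) overlapped an XPD peak, and among the 4962 with a score like that of the second IDH1 peak, 20.4% (19.3 to 21.5) did, a comparison picked once the values were known. XPB peaks without an XPD partner were therefore the minority at the first score and the majority at the second. The XPD list stops at a score of 150 and its lowest summit has 6 fragments, so absence from the list is not absence of XPD, and a difference between the helicases at IDH1 was not tested.

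Upstream of IDH1 the XPB list had 2 more summits within 100 kb, at 10988 bp (16 fragments, score 220.2) and 14414 bp (11 fragments, score 150.9). Neither overlapped an XPD peak. In RefSeq the divergent neighbour at the IDH1 start is the noncoding IDH1-AS1, and the next protein-coding gene on that side is PIKFYVE, a lipid kinase gene, but peaks were not assigned to these neighbours. Within 1 Mb of the IDH1 start lay 10 XPB and 4 XPD summits. The median of 2 Mb windows over all chromosomes was 8 XPB summits (interquartile range 2 to 19) and 5 XPD summits (1 to 13), so the neighbourhood was of ordinary density in both lists.

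NRAS had no summit of either list within 2 kb. The nearest was a site found in both lists 41.1 kb upstream of the start, with summits 18 bp apart. The XPB peak there, from 115300248 to 115300949 on chromosome 1, had 10 fragments (4.80 to 18.4) and a score of 167.3. The XPD peak, from 115300252 to 115301084, had 17 fragments (9.90 to 27.2) and a score of 238.3. On the log2 scale the XPD height over the XPB height came to 0.77 (exact binomial interval -0.44 to 2.05), which includes the median of 0.11 over the 5536 pairs of best overlapping peaks (interquartile range -0.19 to 0.38).

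An XPD peak without an XPB partner lay 63.8 kb upstream of NRAS, with 20 fragments and a score of 175.5. On the other side the nearest XPB summit was 111 kb away (12 fragments) and the nearest XPD summit 135 kb away (10 fragments). Within 1 Mb of NRAS lay 13 XPB and 10 XPD summits, both inside the interquartile ranges given above. NRAS therefore lacked a called peak in a region that was not short of them.

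**Figure D1:**
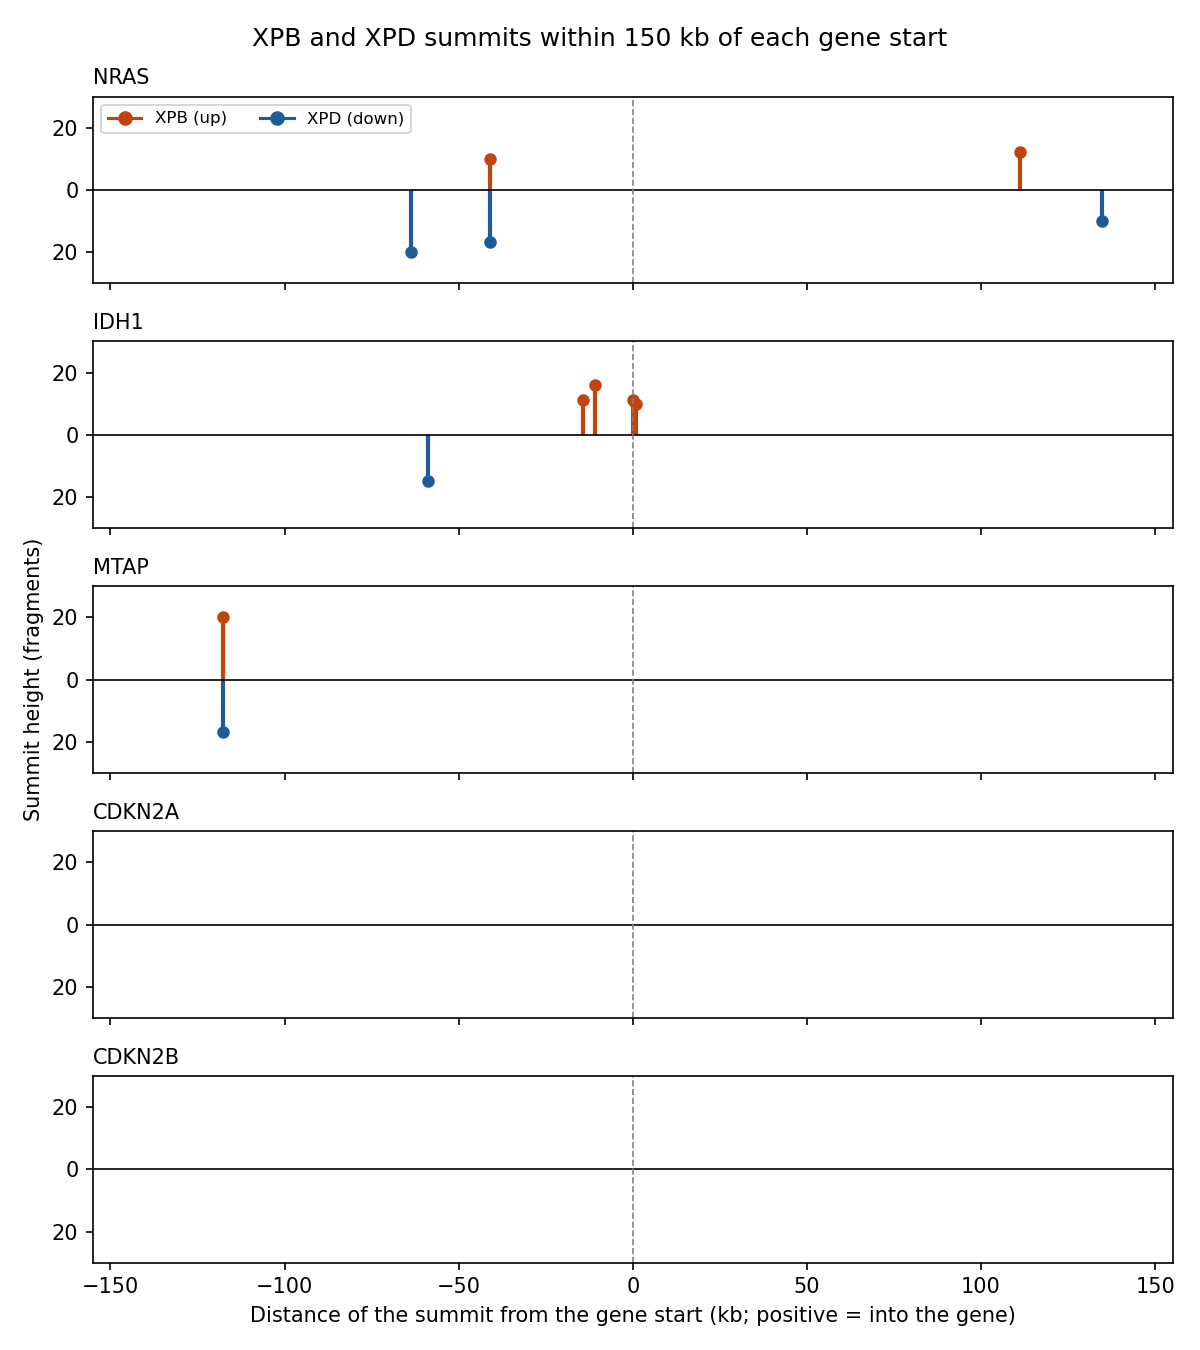
Summits of XPB (red, upward) and XPD (blue, downward) within 150 kb of each gene start; the horizontal axis is the distance from the start in kb, positive into the gene, and the vertical axis is the summit height in fragments. Only IDH1 has summits at the start, 2 of XPB, and the panels of CDKN2A and CDKN2B are empty.

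At 9p21 neither list had a peak at or near MTAP, CDKN2A or CDKN2B. All 3 starts lay in a single stretch without a summit of either list, from position 21685069 to 26871728 of chromosome 9, a length of 5.19 Mb. MTAP began 0.118 Mb from the lower end of this stretch, CDKN2A 0.290 Mb and CDKN2B 0.324 Mb from it. The distances to the upper end were 5.07, 4.90 and 4.86 Mb. The 3 genes thus sat near the end of the stretch that borders the last shared peaks, and most of the peak-free DNA lay beyond CDKN2B, where RefSeq places DMRTA1 and ELAVL2 as the next protein-coding genes.

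Most stretches were far shorter. Of 36101 stretches between neighbouring summits of the joined lists, 23 were at least this long (0.0637%), while the median was 14.9 kb. On the autosomes alone there were 14 of 36025. On chromosome 9 it was the second longest of 1410, after a stretch of 22.2 Mb from 44227494 to 66455208, and ahead of one of 3.25 Mb. Centromeres and parts of the assembly without sequence were not set aside, so stretches across them count in these ranks. For XPB alone the stretch was also 5.19 Mb long, and 31 of 21531 reached that length. The XPD stretch was longer, 5.89 Mb, ending at 27573785, and 32 of 14546 reached it. These counts and the share take every stretch equally, whatever its length. A fixed gene start falls in a long stretch more readily than in a short one. The share therefore overstates how rarely a start lies in a stretch this long. What part of the DNA lies in such stretches was not computed. The rule for 9p21 was written in anticipation of a gap there, so its length is a description and carries no test.

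**Figure D2:**
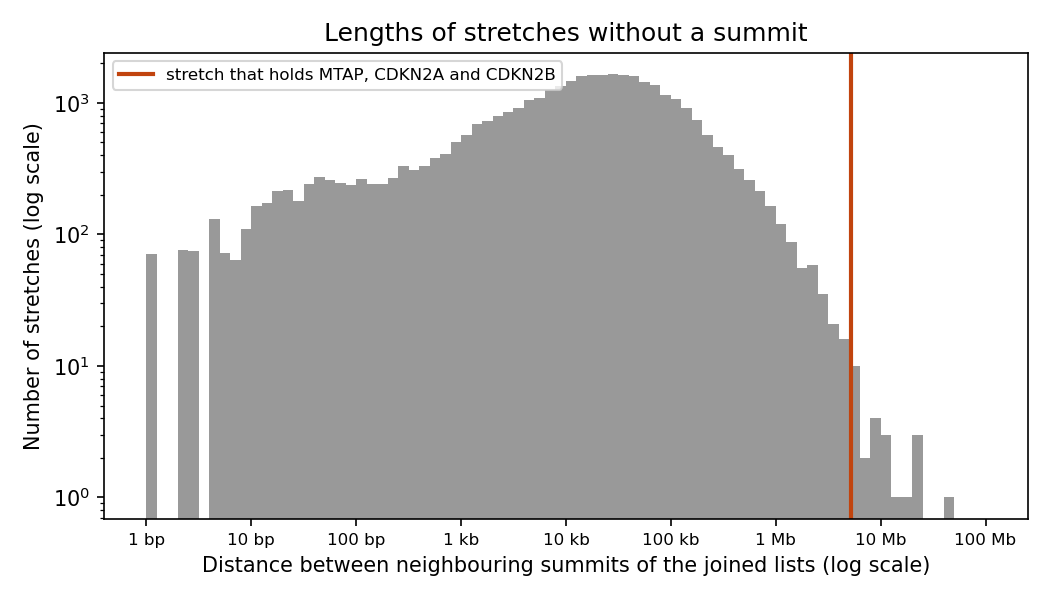
Histogram of the distances between neighbouring summits of the joined XPB and XPD lists, with both axes on a log scale; 37 distances of 0 are not drawn. The red line marks the stretch of 5.19 Mb that holds MTAP, CDKN2A and CDKN2B, in the far right tail.

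Between 20000000 and 24000000 there were 2 summits of XPB and 3 of XPD. The median over 761 windows of 4 Mb was 17 XPB summits (interquartile range 6 to 42) and 11 XPD summits (3 to 28). At most 2 XPB summits were found in 15.0% of these windows, and at most 3 XPD summits in 25.5%. Among 709 autosomal windows these were 70 and 142. The window thus held fewer peaks than the median window in both lists, as did many others. Windows over centromeres or parts of the assembly without sequence were not set aside here either. The 4 Mb window just below held 23 XPB and 5 XPD summits, and the one just above held 7 and 1.

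All peaks of the window lay below MTAP. The site nearest to the 3 genes had an XPB peak from 21684755 to 21685216 and an XPD peak from 21684799 to 21685395, with summits 51 bp apart. Its heights were 20 fragments for XPB (12.2 to 30.9) and 17 for XPD (9.90 to 27.2), with scores of 282.2 and 160.1. The summits lay 118 kb upstream of the MTAP start. A further site had an XPB peak from 21591631 to 21592161 and an XPD peak from 21591515 to 21592198, with summits 17 bp apart and 27 fragments in each list (17.8 to 39.3). Its scores were 210.5 for XPB and 152.4 for XPD. The remaining peak was of XPD alone, from 20102721 to 20103476, with 9 fragments and a score of 155.8.

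Both XPB peaks of the window overlapped an XPD peak, where 26.6% of all XPB peaks did, and 2 of the 3 XPD peaks overlapped an XPB peak, where 38.7% of all XPD peaks did. These are few peaks, and the shares support no comparison. The log2 ratios of XPD to XPB height were 0.00 (-0.83 to 0.83) and -0.23 (-1.26 to 0.77), and both intervals include the median of 0.11 over all pairs.

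The tallest site of the window combined a tall summit with a low score. Its 27 fragments stood at or above the height of 98.3% of XPB peaks and 97.7% of XPD peaks. The XPB score of 210.5 was below the median of 464.4 over the 62 XPB peaks of the same height, and 4.84% of those scored no higher. In the XPD list the median over 43 peaks of that height was 396.9, and 2.33% scored no higher than 152.4. At the site nearest MTAP the departure was smaller: 43.6% of XPB peaks of equal height and 12.7% of XPD peaks of equal height scored no higher. The IDH1 start showed the opposite combination, as given above. What set score and height apart at these sites was not tested.

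Beyond the window, the next summit below was a tall site shared by the lists, with 83 XPB fragments (66.1 to 103) at position 19380209 and 88 XPD fragments (70.6 to 108) at 19380222, and scores of 2074 and 1591. It lay 2.59 Mb from CDKN2A, and its log2 height ratio was 0.08 (-0.36 to 0.53). On the upper side the first XPB summits were at 26871728 (14 fragments, score 153.7), 26892803 (16, score 263.3) and 26947532 (26, score 394.2), none of which overlapped an XPD peak. The first XPD summit on that side was at 27573785, with 10 fragments and a score of 183.6, and it overlapped an XPB peak. The next XPD summit after it was 10.4 Mb from CDKN2A, so sparse XPD peaks were not limited to the stretch that holds the 3 genes.

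**Figure D3:**
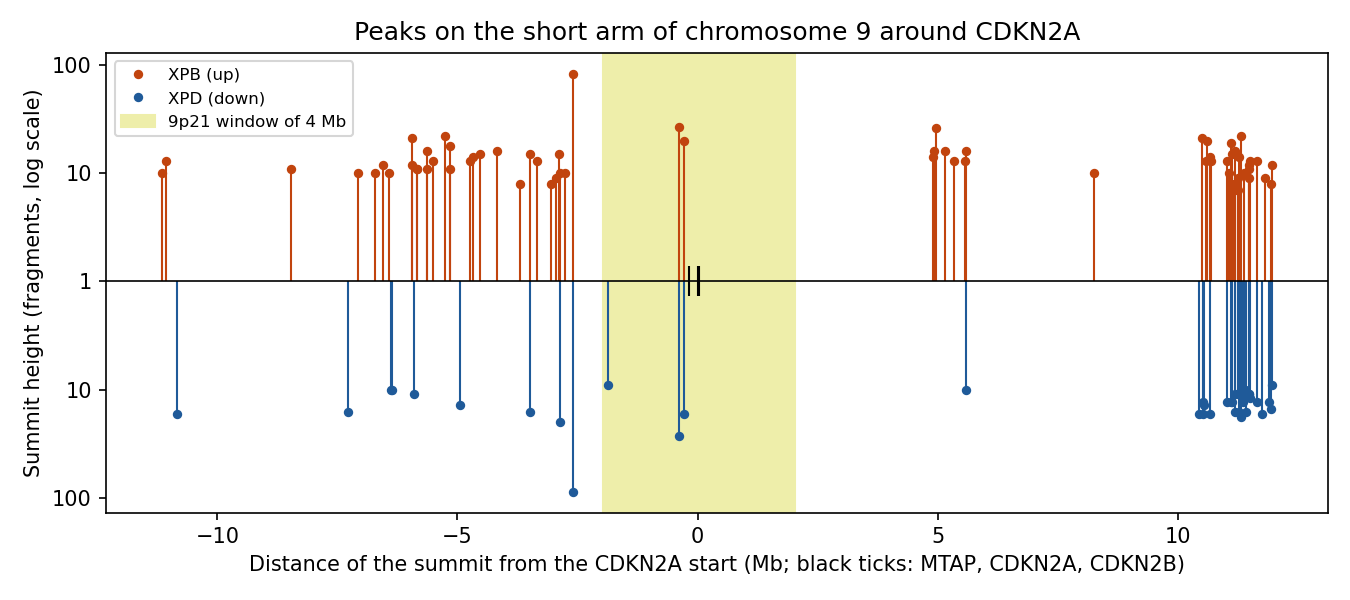
Summits of XPB (red, upward) and XPD (blue, downward) within 12 Mb of the CDKN2A start, with the distance in Mb along the chromosome on the horizontal axis and the summit height in fragments on a log scale on the vertical axis. The yellow band is the 4 Mb window and the black ticks are the MTAP, CDKN2A and CDKN2B starts; no summit lies between the ticks and the group of XPB summits 4.90 Mb away.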

How the data were processed

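Per the submitters' processing notes, Bowtie 0.12.7 (alignment to hg19) and MACS 1.4 (peak calling) were used. The caller's settings and the use of the input as control are not given in the sources used here. The authors deposited, for each ChIP library separately, peak intervals with a score and summits with a signal, a whole-number height in fragments not scaled to depth. The deposited score runs from 150 to 3100. Library depth is unknown, so heights were described within each list, and the ratio of heights at a shared site was set only beside the median ratio over all pairs.

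Positions are 1-based hg19. Gene starts were those named in the choice of genes, and the members and lists were chosen with earlier results of these data known. Named genes were the 5 members, whether or not they had a peak. Genes with a similar pattern and other pathway genes (RAS, IDH and CDK inhibitor pathways) were to be counted only with an hg19 annotation, and were not analysed here. Peaks overlapped when they shared at least 1 bp. Intervals are exact (Poisson or Clopper-Pearson, 95%) and cover counting error only, since each antibody has 1 library. They treat fragments as independent, which PCR copies are not, so they may be too narrow. The overlap and stretch functions were tested on simulated lists. Promoter sequences and gene order came from RefSeq (GRCh38.p14). Python 3.11.15, numpy 2.4.6, pandas 2.3.3, scipy 1.17.1 and matplotlib 3.10.9 were used.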

Additional observations from a re-analysis of the deposited data

How the results depend on the processing

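Of 36 alternatives, 27 stayed close to the reported value and 9 moved. IDH1 remained the gene start with an XPB summit, 1 of 5, and XPD stayed at 0 of 5, with distances of 1, 5 or 10 kb, with intervals in place of summits and with scores of at least 200 or 300. Some of these outcomes were fixed beforehand. A distance of 1 kb or a score cut could not raise the 0 of XPD, and the XPB cuts had to keep the IDH1 peak of score 334.2. Nor could a stricter overlap rule raise the 0 overlaps at the gene starts. Such alternatives are among the 27, so that count does not measure stability. In the 9p21 window a score of at least 300 left 0 XPB peaks, scores of at least 200 and of at least 300 each left 0 XPD peaks, and summits of at least 20 fragments, an alternative added after seeing the data, left 1 XPD peak. The length of the stretch at CDKN2A stayed within 1.5 times of 5.19 Mb in every setting tried. The share of stretches at least as long (0.0637%) was 0.144% for XPB alone and 0.220% for XPD alone. It was 0.396% for scores of at least 200, 0.142% on chromosome 9 and 0.0389% on the autosomes, the last added after seeing the data. All these shares count stretches and not bases of DNA. No paired analysis was possible because each antibody has 1 library, and for the same reason no library could be left out. Unknown depth and the score minimum of 150 limit what absence from a list shows.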
